A study of Mus musculus with 9 samples.

Results

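The set comprised 10 genes of receptors for the constant part of antibodies (Fc receptors), including the signalling chain Fcer1g, and of the Siglec family. That family is named for lectins of sialic acid on glycoproteins and glycolipids. These 10 genes were followed in CD103+ lung dendritic cells before and after culture. They are the Fc receptor genes Fcgr1, Fcgr2b, Fcgr3, Fcgr4, Fcer1g and Fcgrt, and the Siglec genes Siglech, Siglec1, Siglece and Siglecg. The members were chosen by symbol. All 10 were found, each on 1 row, among 45535 rows of the table that carry a symbol, and all 10 passed the filter on low values (a mean over the 9 samples of 10 or more) and were tested.

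The cells came from lungs of C57/BL6j mice after 7 days of bleomycin, which injures the lung and is used to model fibrosis. After collagenase digestion, cells carrying CD103 were captured with magnetic beads. The group before culture (5 samples) was harvested directly, and the group after culture (4 samples) was kept for 18 h in RPMI medium with FBS and pen/strep. Every sample was treated with bleomycin, and samples of untreated lung are not analysed here. The labels give no age, nor the number of mice behind each sample, so p-values measure the spread between these samples, which may be technical.

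Fc gamma receptors bind IgG on immune complexes and opsonized particles. The activating receptors Fcgr1, Fcgr3 and Fcgr4 signal through the adaptor chain Fcer1g, which carries an activation motif (ITAM), whereas Fcgr2b carries an inhibitory motif (ITIM) in its own tail. In dendritic cells the balance between these chains is known to set how strongly an immune complex activates the cell, and Fcgrt encodes the neonatal Fc receptor, which pairs with beta-2 microglobulin and handles IgG in endosomes. Siglecs are sialic acid-binding lectins. Siglece and Siglecg are inhibitory, Siglec1 (CD169) is an adhesion receptor best known on macrophages, and Siglech is best known on plasmacytoid dendritic cells, where it signals through the adaptor Tyrobp.

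Fcgr2b and Fcgr3 moved in opposite directions although they are close copies, so the stretch that they share is shown first. In GENCODE M21 (GRCm38), Fcgr2b lies on the minus strand at chr1:170958617-170976547 and Fcgr3 on the minus strand at chr1:171051174-171064935, with Fcgr4 between them on the plus strand at chr1:171018920-171029761. The longest run of identical bases in their longest transcripts is 129 bases long and lies in the coding sequence of both, from exon 3 into exon 4.
Fcgr2b and Fcgr3, shared coding stretch: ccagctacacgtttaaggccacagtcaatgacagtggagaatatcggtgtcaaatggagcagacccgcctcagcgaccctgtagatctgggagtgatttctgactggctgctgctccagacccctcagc
The exonic overlap with the antisense gene Gm38204 covers 155 bases of Fcgr2b. Strandedness is not given in the sources used here, so reads of Fcgr2b and Gm38204 within those 155 bases cannot be told apart. Of all 50-base windows of the longest Fcgr3 transcript, 12.8% also occur in Fcgr2b, and 4.75% of the Fcgr2b windows occur in Fcgr3. Another 4.29% of Fcgr2b windows occur in Olfr1039. How the authors' counting treated reads from shared windows is not given in the sources used here, so the values of Fcgr2b and Fcgr3 are uncertain to that extent. For Siglecg the shared part was 5.78%, most of it with Gm29791, and for Siglech 1.07%. The other 6 members shared no window with another gene.

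The windows around the start sites of 5 members are shown because they hold the pair that moved apart (Fcgr2b and Fcgr3) and the 3 genes whose groups did not overlap (Fcgrt, Siglece and Siglech). Each holds 250 bases before and 50 after a RefSeq start site in GRCm38.p6, read 5′ to 3′ on the gene's strand. Capitals mark matches, on either strand, to the core recognized by the myeloid factor PU.1 (GAGGAA, or TTCCTC on the other strand) and to the GAS element of STAT factors (TTCNNNGAA).
Fcgr2b, chr1:170976022-170976321, minus strand: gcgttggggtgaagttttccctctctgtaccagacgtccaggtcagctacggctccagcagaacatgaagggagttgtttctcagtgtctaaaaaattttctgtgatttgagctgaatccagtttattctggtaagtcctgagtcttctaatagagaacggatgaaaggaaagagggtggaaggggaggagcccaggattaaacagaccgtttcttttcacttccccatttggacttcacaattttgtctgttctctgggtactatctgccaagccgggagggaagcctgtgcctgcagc
Fcgr3, chr1:171059354-171059653, minus strand: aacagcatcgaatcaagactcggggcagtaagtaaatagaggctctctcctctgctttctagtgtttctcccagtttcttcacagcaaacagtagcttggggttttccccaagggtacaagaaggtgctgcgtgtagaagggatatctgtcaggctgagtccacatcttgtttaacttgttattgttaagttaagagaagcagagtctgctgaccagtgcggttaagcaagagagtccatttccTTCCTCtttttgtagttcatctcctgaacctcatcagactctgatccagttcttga
Fcgrt, chr7:45103773-45104072, minus strand: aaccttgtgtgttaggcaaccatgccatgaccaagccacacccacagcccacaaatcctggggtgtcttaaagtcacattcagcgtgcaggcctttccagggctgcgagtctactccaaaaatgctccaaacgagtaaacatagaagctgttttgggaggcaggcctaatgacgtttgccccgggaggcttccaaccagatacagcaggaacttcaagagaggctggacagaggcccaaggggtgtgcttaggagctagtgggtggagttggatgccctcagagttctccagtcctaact
Siglece, chr7:43660112-43660411, minus strand: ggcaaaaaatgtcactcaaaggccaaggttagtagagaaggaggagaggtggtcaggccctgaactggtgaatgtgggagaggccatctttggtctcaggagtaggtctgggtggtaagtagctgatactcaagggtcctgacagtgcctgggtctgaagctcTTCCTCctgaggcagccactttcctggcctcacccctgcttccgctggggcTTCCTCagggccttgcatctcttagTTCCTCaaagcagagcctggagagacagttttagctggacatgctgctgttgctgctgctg
Siglech, chr7:55767934-55768233, plus strand: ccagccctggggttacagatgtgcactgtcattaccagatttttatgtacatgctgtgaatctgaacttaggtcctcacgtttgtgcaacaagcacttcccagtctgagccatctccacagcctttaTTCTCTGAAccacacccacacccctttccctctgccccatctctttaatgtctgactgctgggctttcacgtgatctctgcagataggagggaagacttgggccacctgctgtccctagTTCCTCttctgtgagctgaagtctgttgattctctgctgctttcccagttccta
The Siglece window held 3 matches to the PU.1 core, those of Fcgr3 and Siglech 1 each, and those of Fcgr2b and Fcgrt 0. Of the 9 members with an entry in the table of start sites, 6 held the core in at least 1 window, where Fcgr3 and Siglecg have 2 windows each. Counted by single window rather than by gene, 28.3% of all 32851 windows of that length held it. A GAS match was seen for Siglech and for Fcgr1, against 8.30% of all windows, and overlapped no PU.1 match. An interferon-stimulated response element (GAAA, 2 bases of any kind, then GAAA, on either strand) was seen for Fcgr4, against 3.44% of all windows.

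Depth in rows with a symbol ran from 14.7 to 28.8 M reads before and from 26.0 to 35.3 M reads after culture, where a single read counts for 0.758 to 1.79 after the authors' normalization. Itgae, which encodes CD103, was read in every sample, with a normalized count of 18138 ± 1537 before (SD, n = 5) and 1727 ± 335 after culture (SD, n = 4). Of 10 marker genes of type 1 conventional dendritic cells, the main CD103+ dendritic cell of the lung, 8 fell and 2 rose, and their summed level was 123900 to 151277 before and 27547 to 31504 after culture. Markers of other cell types were read as well. Summed over each list, monocyte and interstitial macrophage markers had normalized counts of 47677 to 81056 before and 38785 to 76280 after culture. Neutrophil markers had 14393 to 25089 and 944 to 1916, and endothelial markers 24965 to 36550 and 3358 to 4416.

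After culture, 7 of the 10 genes were lower, 1 was higher and 2 did not pass the threshold, a limma adjusted p under 0.05 over all 18202 tested genes. Of all tested genes 68.8% were called, 34.6% as lower and 34.2% as higher. The median log2 fold change of the 10 genes was −0.67, and that of all tested genes was 0.0065. Fold changes on the log2 scale are of the normalized count plus 1, and a fold is the ratio of the group means. The groups' values did not overlap for 3 of the 10 genes (Siglech, Fcgrt and Siglece), against 57.3% of all tested genes. All 3 were lower, as were the non-overlapping values of 28.6% of all tested genes, with 28.7% higher. In these bulk samples fewer cells of a type and less RNA per cell cannot be told apart.

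**Figure D1:**
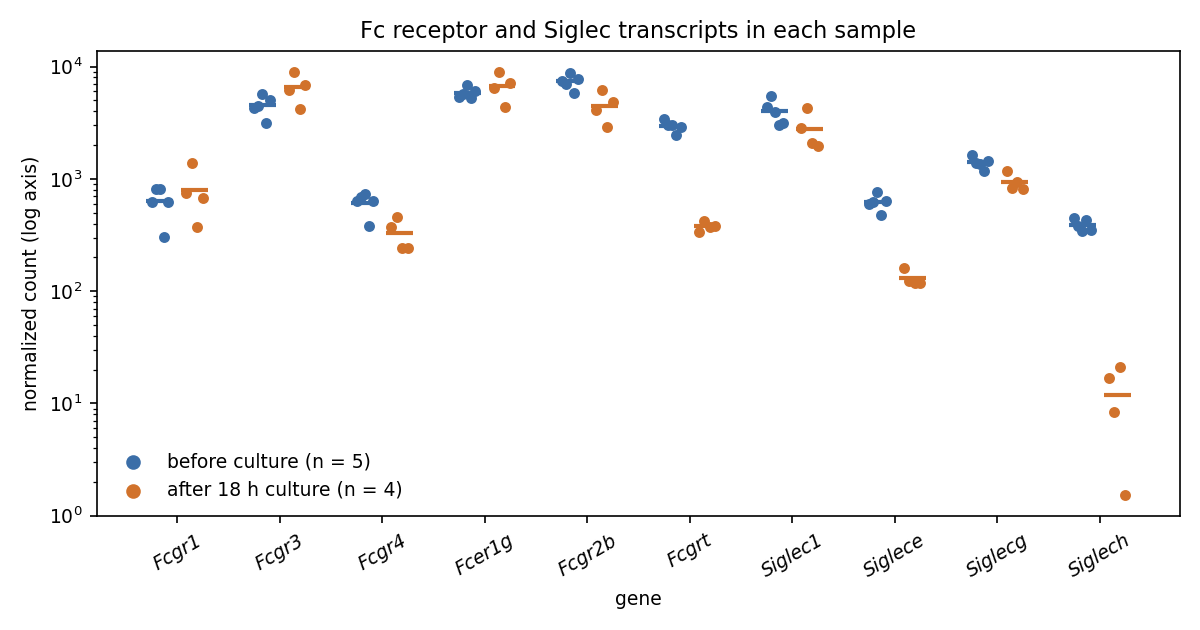
Normalized count (log axis) of each of the 10 genes in each sample, with 5 samples before culture in blue and 4 after 18 h of culture in orange. Points are samples and bars are group means. Siglech, Fcgrt and Siglece are the genes whose groups do not overlap.

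Fcgr1, the high-affinity IgG receptor (chr3:96282909-96293969, minus strand), had normalized counts of 626, 813, 804, 306 and 621 in replicates 1 to 5 before culture and 745, 1384, 376 and 676 in replicates 1 to 4 after culture. The groups overlapped, with the lowest value of each group in before-culture replicate 4 and after-culture replicate 3. The estimated log2 change was 0.25 (SE 0.33, limma adjusted p = 0.514), with a 95% interval from −0.46 to 0.97. The interval covers changes in either direction. Without after-culture replicate 2 the estimate was −0.063 (limma adjusted p = 0.859), and without after-culture replicate 3 it was 0.56 (limma adjusted p = 0.108).

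Fcgr3, an activating receptor of low affinity, was the 1 member that rose. The 5 samples before culture held normalized counts of 4287, 4487, 5746, 3160 and 5001, and the 4 after culture 6211, 8964, 4151 and 6876. Of the 4 samples after culture 3 lay above every sample before culture, and replicate 3 lay within their range. The means were 4536 ± 954 and 6550 ± 1983 (SD, n = 5 and n = 4), a 1.44-fold rise (log2 fold change 0.50, SE 0.20, limma adjusted p = 0.0362). The call was kept in 3 of the 9 fits that left out 1 sample. It was lost without before-culture replicate 1 (limma adjusted p = 0.0645), 2 (0.0578) or 4 (0.0790) and without after-culture replicate 1 (0.0654), 2 (0.122) or 4 (0.0898).

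Fcgr4, an activating receptor best known on monocytes, macrophages and neutrophils, moved the other way, with normalized counts of 631, 691, 737, 377 and 634 before culture and 375, 461, 241 and 242 after culture. Replicate 4 before culture lay within the range of the cultured samples, and the other 4 samples before culture lay above all of them. The gene was 1.86-fold lower (614 ± 140 against 330 ± 108, SD), and its log2 fold change was −0.91 (SE 0.22, limma adjusted p = 0.00222).

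Fcer1g, the chain through which these activating receptors signal (chr1:171229572-171234365, minus strand), did not pass the threshold, with normalized counts of 5331, 5742, 6805, 5225 and 6020 before culture and 6412, 8901, 4376 and 7157 after culture. The cultured samples held both the highest and the lowest value of all 9. The estimated log2 change was 0.17 (SE 0.16, limma adjusted p = 0.372), with a 95% interval from −0.18 to 0.51. Without after-culture replicate 3 it was 0.36 and passed (limma adjusted p = 0.0129), and without after-culture replicate 2 it was 0.014 (limma adjusted p = 0.934).

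Fcgr2b, the inhibitory receptor, fell from normalized counts of 7497, 6926, 8851, 5863 and 7709 before culture to 4146, 6149, 2896 and 4791 after culture. The groups overlapped in that after-culture replicate 2 lay above before-culture replicate 4. The means were 7369 ± 1094 and 4496 ± 1354 (SD, n = 5 and n = 4), a 1.64-fold fall (log2 fold change −0.75, SE 0.18, limma adjusted p = 0.00185).

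Within a sample, the level of Fcgr2b relative to Fcgr3 did not overlap between the groups, although the levels of both genes did. The ratio of their normalized counts was 1.75, 1.54, 1.54, 1.86 and 1.54 before culture and 0.668, 0.686, 0.698 and 0.697 after culture. All 5 samples before culture held more reads of Fcgr2b than of Fcgr3, and all 4 after culture held fewer. These counts are not divided by length. Per kilobase of merged exons the mean of Fcgr3 was the higher in both groups. It was 2613 against 1273 for Fcgr2b before culture and 3773 against 776 after culture. The mean ratio of the normalized counts was 1.65 ± 0.148 before and 0.687 ± 0.0140 after culture (SD), a 2.40-fold fall. The summed count of the pair was 11906 ± 2029 before and 11046 ± 3336 after culture (SD), so the sum differed between groups by less than the spread between replicates.

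Per kilobase of merged exons, Fcgr2b stood to the sum of Fcgr1, Fcgr3 and Fcgr4 as 0.403, 0.347, 0.363, 0.452 and 0.367 before culture. After culture this ratio of inhibitory to activating chains was 0.172, 0.175, 0.183 and 0.187. The groups did not overlap, and the mean fell 2.15-fold, from 0.387 ± 0.0421 to 0.179 ± 0.00717 (SD). Fcgr3 made up most of the sum, at 3773 per kilobase after culture against 307 for Fcgr1 and 263 for Fcgr4. The ratio to the sum thus largely repeats that to Fcgr3 alone. It does not hold for each activating chain, since Fcgr4 fell 1.86-fold and Fcgr2b 1.64-fold. The size of the ratio depends on the lengths used, because Fcgr2b has 5.79 kb of merged exons and a longest transcript of 3544 bases. With counts not divided by length the means were 1.30 and 0.589, and the fall was 2.20-fold. No test is given for either ratio, since the genes in it were chosen with earlier results known.

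**Figure D2:**
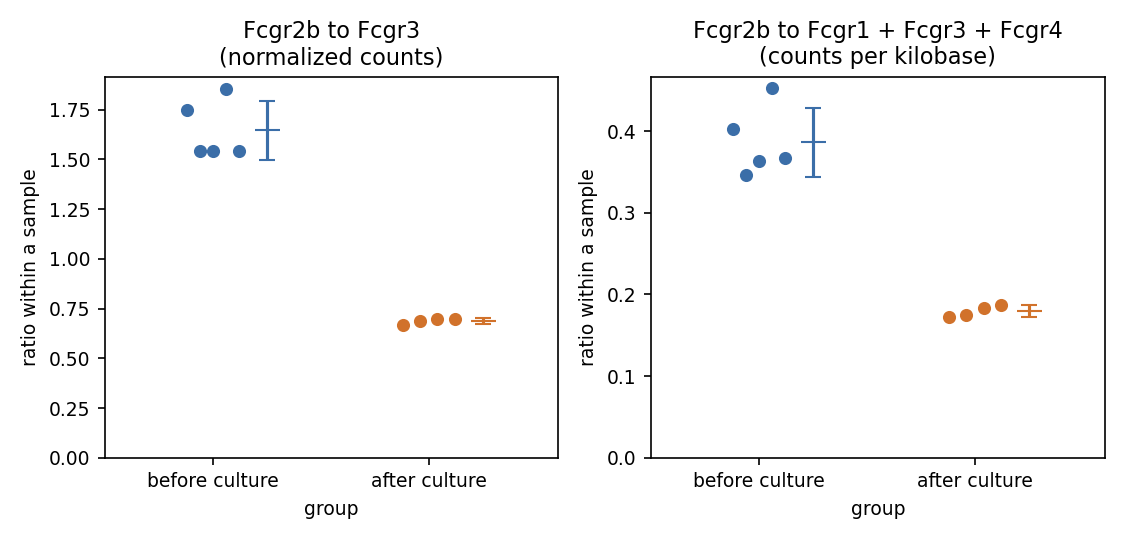
Left, ratio of the normalized counts of Fcgr2b and Fcgr3 in each sample; right, ratio of Fcgr2b to the sum of Fcgr1, Fcgr3 and Fcgr4 from counts per kilobase. Points are samples and bars are mean ± SD (n = 5 before, n = 4 after culture), and the cultured samples lie between 0.668 and 0.698 on the left, below all samples before culture.

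Fcgrt, the neonatal Fc receptor (chr7:45092990-45103851, minus strand), fell most among the 6 Fc receptor genes, from normalized counts of 3438, 3022, 3006, 2461 and 2893 before culture to 337, 419, 375 and 382 after culture. Every cultured sample lay far below every sample before culture, with little spread in either group. The gene was 7.84-fold lower (2964 ± 349 against 378 ± 33.2, SD), and its log2 fold change was −2.96 (SE 0.10, limma adjusted p = 2.37e-11). Of all tested genes, 95.1% changed less. Its partner chain B2m rose in the same samples, from 45492 ± 2850 to 88512 ± 6045 (SD), a log2 fold change of 0.96. Endothelial cells also express Fcgrt, and all 10 endothelial markers fell, with a median log2 fold change of −3.30. Tie1 fell by 4.87 and Ramp2 by 5.80 on the log2 scale, and the part of these cells in the Fcgrt result was not tested.

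Siglech (chr7:55768178-55778925, plus strand) showed the largest change of the 10 genes. Its normalized counts were 448, 379, 341, 427 and 351 before culture, from 196 to 510 reads. After culture they were 16.8, 8.34, 20.9 and 1.52, from 19, 11, 23 and 2 reads. All 4 cultured samples were thus close to the lower limit of detection, and replicate 4 was under the 3 reads taken as the floor. The gene was 32.7-fold lower (389 ± 46.7 against 11.9 ± 8.67, SD), and its log2 fold change was −5.31 (SE 0.48, limma adjusted p = 3.70e-07). It ranked 85 by size of change among the 18202 tested genes. The estimate depends on the pseudocount and on the lowest library. It was −4.43 with a pseudocount of 8 and −4.66 without after-culture replicate 4, and it passed the threshold in both.

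Other markers of plasmacytoid dendritic cells did not fall alike. Of the 9 tested, 4 were lower, 2 higher and 3 not called, with a median log2 fold change of −0.44, and the summed level of the list was 10174 to 11799 before and 6613 to 7700 after culture. Pacsin1 fell by 2.12 and Pltp by 1.91 on the log2 scale. Klk1 was not tested, with mean counts of 3.17 before and 0.638 after culture. The part of these cells in the Siglech result was not tested.

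Siglece, an inhibitory Siglec of neutrophils, monocytes and macrophages (chr7:43651070-43660161, minus strand), was lower in every cultured sample. The values were 599, 617, 764, 475 and 635 before culture and 162, 124, 118 and 119 after culture. The groups did not overlap, and 3 of the 4 cultured samples lay close together. The gene was 4.73-fold lower (618 ± 103 against 131 ± 20.8, SD), and its log2 fold change was −2.23 (SE 0.14, limma adjusted p = 1.17e-08). All 8 tested neutrophil markers fell as well, with a median log2 fold change of −4.14. Trem1 fell by 6.86 and Mmp9 by 3.88 on the log2 scale, and Ly6g, which was not tested, was at 1.90 to 11.2 before culture and at 0 in every cultured sample. The part of neutrophils in the Siglece result was not tested.

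Siglecg, an inhibitory Siglec best known on B cells (chr7:43408204-43418358, plus strand), fell less, with normalized counts of 1640, 1388, 1356, 1177 and 1450 before culture and 1183, 835, 937 and 808 after culture. The groups overlapped by a single pair, since after-culture replicate 1 lay just above before-culture replicate 4. The gene was 1.49-fold lower (1402 ± 167 against 941 ± 171, SD), and its log2 fold change was −0.58 (SE 0.12, limma adjusted p = 0.000671). With GC content and length corrected for, the log2 fold change of Siglecg was −0.35 and still passed (limma adjusted p = 0.0155). Of 9 B cell markers 1 rose (Ms4a1), 1 fell (Pax5) and 7 were not called, with a median of 0.022. Their summed level was 3192 to 5825 before and 3167 to 4537 after culture. The part of B cells in the Siglecg result was not tested.

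Siglec1, or CD169 (chr2:131069220-131086765, minus strand), passed the threshold with a lower level after culture. Its normalized counts were 4352, 5415, 3970, 3045 and 3134 before culture and 2833, 4269, 2095 and 1961 after culture. After-culture replicate 2 lay within the range before culture, and the other 3 cultured samples lay below it. The gene was 1.43-fold lower (3983 ± 973 against 2789 ± 1058, SD), and its log2 fold change was −0.55 (SE 0.22, limma adjusted p = 0.0354). The call was kept in 3 of the 9 fits that left out 1 sample and was lost without before-culture replicate 1 (limma adjusted p = 0.0725), 2 (0.0899) or 3 (0.0582) and without after-culture replicate 1 (0.0546), 3 (0.1001) or 4 (0.129). It was also lost in DESeq2 (log2 fold change −0.52, adjusted p = 0.107) and when GC content and transcript length were corrected for (−0.07, limma adjusted p = 0.773). Of 10 markers of alveolar macrophages, which also carry CD169, 6 fell, 2 rose and 2 were not called, with summed levels of 28697 to 39544 before and 15505 to 19737 after culture. Their part in the Siglec1 result was not tested.

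**Figure D3:**
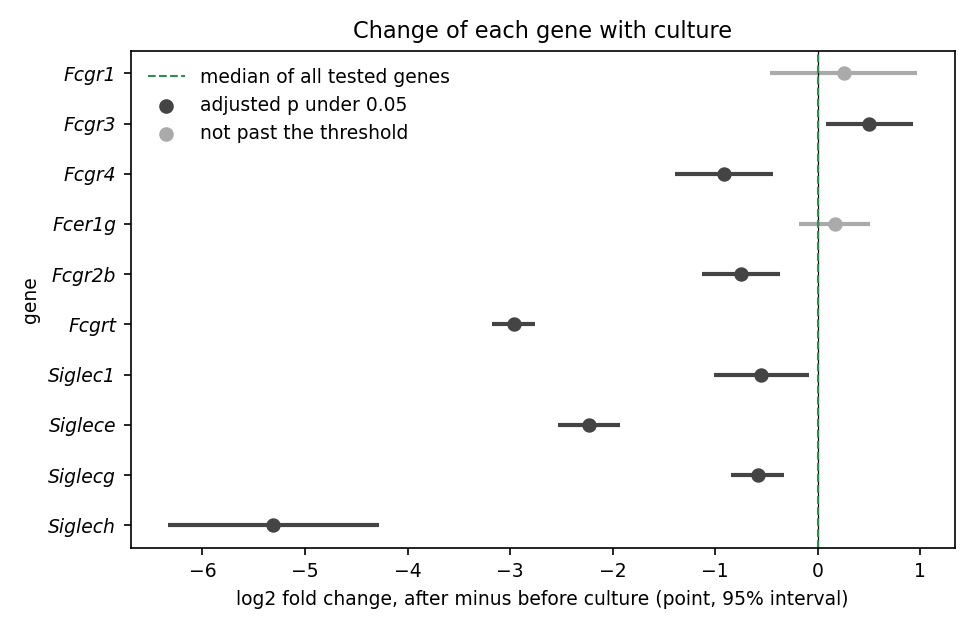
Log2 fold change of each gene after minus before culture (x axis; points, with 95% intervals from limma as lines), with genes past an adjusted p of 0.05 in dark grey and the others in light grey. The dashed line is the median of all tested genes at 0.0065; Siglech lies at −5.31, Fcgrt at −2.96 and Siglece at −2.23, and Fcgr3 is the dark point to the right of 0.

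Much of the spread within each group was shared between genes. Before-culture replicate 4 held the lowest value of its group for 9 of the 10 genes, and after-culture replicate 3 for 6 of the 10. After-culture replicate 2 held the highest value of its group for 7 of the 10, and before-culture replicate 3 for 5. Fcgr1 showed the widest swing among the genes other than Siglech, from 306 to 813 before and from 376 to 1384 after culture.

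The summed monocyte and interstitial macrophage markers had their extremes in the same samples. They were lowest in before-culture replicate 4 (47677, a log2 deviation of −0.50 from its group mean) and after-culture replicate 3 (38785, −0.52). They were highest in before-culture replicate 3 (81056, 0.26) and after-culture replicate 2 (76280, 0.46). Of the 12 markers 6 fell, 2 rose and 4 were not called after culture, with a median log2 fold change of −0.63. Ccr2 fell by 2.46 and Cx3cr1 by 1.80 on the log2 scale. No marker on this list was at or below 3 reads in every cultured sample. The pattern was not particular to this list. Summed type 2 conventional dendritic cell markers were lowest (30868 before and 17416 after culture) and highest (48955 and 30610) in the same samples. Neutrophil markers also had all these extremes, and so did the ITAM adaptor and kinase genes described below. The other marker lists did not share all of them. The part of any of these cells in the levels of the 10 genes was not tested. Before-culture replicate 4 and after-culture replicate 3 carry the same number, 4, in their library names. With both left out, Fcer1g passed as higher (log2 fold change 0.32, limma adjusted p = 0.0174) beside Fcgr3 (0.58, limma adjusted p = 0.000839), and the same number of genes, 7, was called lower.

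**Figure D4:**
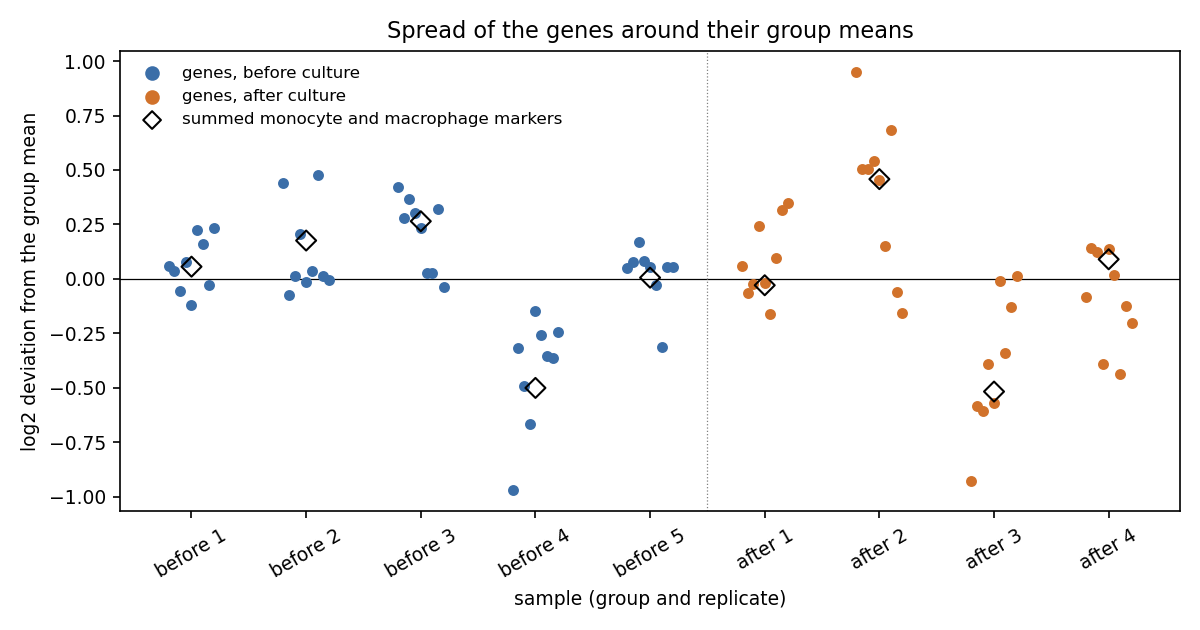
Log2 deviation from the group mean in each sample (x axis, group and replicate) of 9 of the genes, with Siglech left out because its cultured samples hold few reads, and of the summed monocyte and interstitial macrophage markers (open diamonds). Before-culture replicate 4 and after-culture replicate 3 lie lowest, with diamonds at −0.50 and −0.52, and after-culture replicate 2 lies highest, at 0.46. Sums of type 2 conventional dendritic cell and of neutrophil markers, not drawn, had their extremes in the same samples.

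Divided by the length of merged exons, Fcer1g had the highest level of the 10 genes before culture, at 6664 ± 726 normalized counts per kilobase (SD, n = 5). Fcgr3 followed at 2613 ± 550, and these 2 did not overlap with each other or with the next gene. Fcgrt (1410 ± 166) and Fcgr2b (1273 ± 189) came next and overlapped. Siglec1 lay below both without overlap, and Siglec1, Fcgr4, Siglece, Siglecg and Fcgr1 stood at 558, 489, 334, 292 and 245 per kilobase, each overlapping its neighbour, and Siglech was lowest at 115 ± 13.8, a range that met that of Fcgr1.

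After culture Fcer1g (7679 ± 2145 per kilobase, SD, n = 4) and Fcgr3 (3773 ± 1143) were still the highest, and their ranges now overlapped. Fcgr2b, Siglec1, Fcgr1, Fcgr4 and Siglecg followed at 776, 391, 307, 263 and 196 per kilobase, each overlapping its neighbour. Fcgrt went from the third place to the eighth, at 180 ± 15.8 per kilobase, within reach of Siglecg. Siglece (70.7 ± 11.3) and Siglech (3.52 ± 2.56) were lowest and overlapped with no other gene.

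The genes with the pattern most like that of Fcer1g over the 9 samples were Ifi207, Pi4ka and Iqgap1, with Pearson correlations of 0.981, 0.979 and 0.977 of the log2 values. None of these 3 was called between the groups by limma. For Siglech they were A430078I02Rik, 9530086O07Rik and Zfp57 (0.998, 0.997 and 0.997), and all 3 were lower after culture by limma, so that the samples fall into 2 clusters by group. These correlations are descriptions over samples that share depth and group.

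Other Fc receptor genes moved in both directions. The list of 12 genes with a row also counts B2m, the partner chain of Fcgrt. Of these, 9 were tested, and 3 rose (Fcrl5, Trim21 and B2m), 4 fell and 2 were not called. Beside this and the lists below, 68.8% of all tested genes were called, 34.6% as lower and 34.2% as higher. Fcrl5, an Fc receptor-like gene of B cells, rose from 26.1 ± 9.09 to 191 ± 57.4 (SD, log2 fold change 2.84), and Trim21, a cytosolic antibody receptor, from 250 ± 30.8 to 556 ± 46.5 (1.15). Fcrla, an intracellular Fc receptor-like gene, fell from 643 ± 48.2 to 201 ± 29.2 (−1.68). The high-affinity IgE receptor chains Fcer1a and Ms4a2 were not tested, with mean counts before culture of 1.35 and 5.51.

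All 4 tested genes of the other Siglecs were called, 2 higher and 2 lower. Cd33 fell from 2946 ± 415 to 1474 ± 199 (SD, log2 fold change −0.997) and Siglecf, best known on eosinophils and alveolar macrophages, from 667 ± 52.2 to 306 ± 65.2 (−1.14). Cd22, an inhibitory receptor of B cells, rose from 999 ± 175 to 1579 ± 133 (0.67), and Mag, known from myelin, from 68.0 ± 16.9 to 194 ± 22.9 (1.53).

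Downstream of the activating chains, 12 of 24 ITAM adaptor and kinase genes fell, 4 rose and 8 were not called, with a median log2 fold change of −0.25. The adaptor Tyrobp had 8298 ± 817 before and 7963 ± 1951 after culture (SD, limma adjusted p = 0.604), and the kinase Syk 10849 ± 1149 and 11519 ± 1783 (limma adjusted p = 0.547). Pik3ap1, an adaptor of phosphoinositide 3-kinase, fell by 1.15 and the Src family kinase Fyn by 0.73 on the log2 scale, and the exchange factor Vav3 rose by 0.96.

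Of 12 genes of inhibitory phosphatases and adaptors, 5 rose, 4 fell and 3 were not called, with a median of 0.035. Inpp5d, which encodes the phosphatase SHIP1 recruited by Fcgr2b, fell from 16340 ± 736 to 7436 ± 1099 (SD, log2 fold change −1.15, limma adjusted p = 1.83e-07). Ptpn6, the phosphatase SHP-1 recruited by inhibitory Siglecs, had 5388 ± 610 and 4997 ± 567 (log2 fold change −0.11, limma adjusted p = 0.361). The ubiquitin ligase Cblb rose by 1.54 and the adaptor Dok1 by 1.55 on the log2 scale.

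Enzymes that make, transfer or remove sialic acid, the ligand of Siglecs, also moved in both directions. Of the 22 tested rows, 10 rose, 8 fell and 4 were not called, with a median log2 fold change of 0.20, where St6galnac2 holds 2 rows, both lower. St8sia4, a polysialyltransferase, rose from 3643 ± 436 to 13651 ± 1683 (SD, log2 fold change 1.91), and St8sia1, which makes the ganglioside GD3, from 479 ± 7.95 to 1449 ± 333 (1.56). St3gal5, which makes the ganglioside GM3, fell from 1306 ± 75.1 to 283 ± 76.7 (−2.25).

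**Figure D5:**
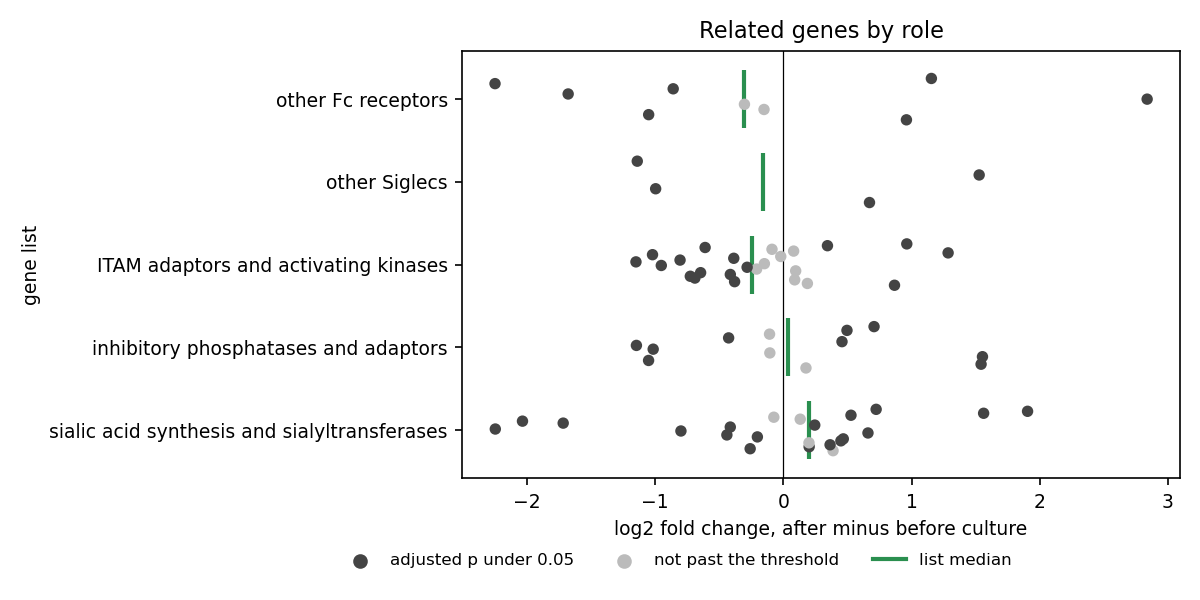
Log2 fold change after minus before culture (x axis) of the tested genes of 5 lists of related genes; dark points passed an adjusted p of 0.05, light points did not, and green bars are list medians. Points lie on both sides of 0 in every list, with medians from −0.30 for other Fc receptors to 0.20 for sialic acid enzymes.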

How the data were processed

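RNA of 5 samples before and 4 after culture was sequenced, and samples were grouped by their titles. The table the authors deposited gives, per gene and sample, a normalized count (a signal of 0 or more). The submitters' processing notes name DESeq2 and GRCm38. The aligner, counting tool, strandedness and annotation are not given in the sources used here. All values (100%) were whole multiples, within a relative 1e-06, of the smallest value above 0 in their column, so whole reads were recovered. The 3782 rows without a symbol, with 3.87 to 10.9% of reads, were left out. Without molecular identifiers, reads are not independent molecules. No pair of samples within a group agreed within sampling noise (16 pairs, chi-square over its degrees of freedom between 6.43 and 60.4).

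Genes with a mean of at least 10 were tested on log2(value + 1) by limma (version 3.58.1, R 4.3.3), two-sided, without covariates and with a mean-variance trend, and p-values were adjusted by Benjamini-Hochberg over 18202 genes. The scripts were tested on simulated data. Of 200 genes given a log2 change of 1, 178 were called at a simulated dispersion (spread between replicates) of 0.02 and 25 at 0.1. Only those 200 genes were changed, whereas 68.8% of all tested genes were called in the data. The adjustment of p-values is therefore stricter in the simulation, and its rates do not carry over to these data. Alternatives were pseudocounts, filters, scalings, sample weights, edgeR 4.0.16 and DESeq2 1.42.0 on recovered reads, a replicate block, a GC content and length correction (96.3% of tested genes had both), and leaving out each sample. Lengths, positions and shared windows came from GENCODE M21, which may differ from the authors' annotation. Start sites came from RefSeq (GRCm38.p6), where 9 of the 10 members had an entry.

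The members and lists were chosen with earlier results of these data known. Named beside the members are up to 3 genes per related list and up to 2 per marker list with the smallest adjusted p, 9 genes fixed by name, and the 3 genes most correlated with Fcer1g and Siglech; Klk1, Ly6g, Fcer1a and Ms4a2 were named after their values were seen. Python 3.11.15, NumPy 2.4.6, pandas 2.3.3 and matplotlib 3.10.9 were also used.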

Additional observations from a re-analysis of the deposited data

Results flagged for a closer look

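Siglece stood apart in after-culture replicate 1. Its normalized count of 162 lay far from the other 3 cultured samples, at 118 to 124, and the gap to the nearest of them took 0.860 of the range of the group, above Dixon's 95% critical value. This was 1 of 20 groups of values examined (10 genes in 2 groups), and chance flags about 1 in 20. Without that sample the log2 fold change of Siglece was −2.33, against −2.23 with it.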

How the results depend on the processing

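The number of genes called lower was 6 or 7 under each of the 14 alternatives and the 9 fits that left out 1 sample. The number called higher was 1 (Fcgr3) and ran from 0 to 2 when a sample was left out. It was 2 (Fcgr3 and Fcer1g) without both libraries numbered 4, an alternative chosen after seeing the data. The only reversal was Fcgr1, at −0.063 without after-culture replicate 2 and between there and 0.56 without any other sample. The mean ratio of Fcgr2b to the activating chains, 0.387 before and 0.179 after culture, was 1.30 and 0.589 with counts not divided by length, and 0.515 and 0.234 with the longest transcript as the length (chosen after seeing the data), because only the divisors differ. Numbers shared by both groups were tried as a replicate block, which used the 8 samples that have a partner. With title numbers the block called 0 genes higher in limma, where Fcgr3 had a log2 fold change of 0.55 (limma adjusted p = 0.0643; 1 gene at an unadjusted p under 0.05; 1 each in edgeR and DESeq2 without a block). With library numbers it called 2, Fcgr3 (0.51, limma adjusted p = 2.02e-05) and Fcgr1 (0.36, limma adjusted p = 0.00907). Deviations of such pairs from their group means correlated at −0.213 to 0.0807 for title numbers and 0.0447 to 0.349 for library numbers. Not every pair exceeded 0.1, the criterion used, so the results above were left unpaired. By library number, 3 of 4 samples before and 4 of 4 after culture correlated best with their own number. Whether library numbers pair the samples is therefore not settled. Depth limits Siglech after culture, at 2 to 23 reads.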
